A study of Mus musculus with 12 samples.

Results

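The genes described here are the 10 members of the MYC, MAX and MXD transcription factor network: Myc, Mycn, Mycl, Max, Mxd1, Mxd3, Mxd4, Mxi1, Mnt and Mlx. They were chosen by name from the 24347 entries of the expression tables. HT22 is an immortalized mouse hippocampal cell line, and total RNA was sequenced from 12 libraries in 4 groups of 3. The siControl group received a negative control siRNA at normal iron, and the siNCOA4 group received one commercial siRNA against Ncoa4, the receptor that delivers ferritin to autophagy for iron release. The siControl+DFO and siNCOA4+DFO groups received the same siRNAs plus 100 µM deferoxamine (DFO), an iron chelator, for 24 h. All groups were thus transfected with an siRNA, none was left untransfected, and the replicates are labelled biological. Normal iron means here only that no DFO was added. The paper takes the higher IRP2 protein after NCOA4 depletion alone as a sign of functional iron deficiency. Values are FPKM, that is, fragment numbers divided by transcript length and by library size, so levels of different genes can be set side by side per unit of length.

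MYC, N-MYC and L-MYC are basic helix-loop-helix leucine zipper proteins that bind DNA as dimers with MAX and activate genes of ribosome production, metabolism and cell division. MXD1, MXI1 (also called MXD2), MXD3, MXD4 and MNT dimerize with the same MAX, bind the same E-box sites and recruit SIN3 and histone deacetylases, which represses transcription. MLX is the partner of the glucose-sensing factors MondoA and ChREBP and can also dimerize with MXD1, MXD4 and MNT. MYC transcript and protein are short-lived, and some MXD genes, Mxd1 among them, are classically associated with growth arrest and differentiation.

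The E-box that all these dimers bind has the core CACGTG, and promoters of 4 network genes held this sequence in RefSeq's GRCm38.p6 promoter entries, which run from 250 bases before to 50 bases after a transcript start. These windows of 30 bases are shown because the network's own binding sequence lies there near a listed transcript start of its genes. The E-box is in capitals, 5′ to 3′ on the gene's strand.
Max: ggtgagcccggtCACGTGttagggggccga
Mxd4: gggctgggccacCACGTGctgttgctaagc
Mnt: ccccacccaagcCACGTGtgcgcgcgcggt
Mlx: ggtgggttggatCACGTGactgagcctcgc
The Max window is chr12:76962234-76962263 on the minus strand and its E-box begins at position -3 from the transcript start. The Mxd4 window is chr5:34187912-34187941 on the minus strand with the E-box at -219. The Mnt window is chr11:74830789-74830818 on the plus strand with the E-box at -123, and the Mlx window is chr11:101087238-101087267 on the plus strand with the E-box at -40. CACGTG reads the same on both strands and contains the shorter sequence ACGTG, a form of the core to which hypoxia-inducible factors bind. Other forms of that core were not searched. Outside an E-box, ACGTG occurred on the gene's strand in 2 of the 3 Mxi1 promoter entries, shown here with ACGTG in capitals.
Mxi1, upstream entry: cctcggcacccgACGTGcactggcgggggg
Mxi1, downstream entry: tgcggatgatcaACGTGcagcgcctgctgg
These lie at chr19:53329335-53329364 and chr19:53329658-53329687 on the plus strand, with the capitals at -66 and -25. Upstream and downstream order these 2 entries only, and both windows lie inside the Mxi1 span, which begins at chr19:53310128. The Max and Mlx windows also lie inside the spans of their genes, chr12:76937269-76962323 and chr11:101086707-101092207. Among 27025 genes with a promoter entry, 8.09% held CACGTG and 21.8% held ACGTG on either strand. Entries were found for 9 of the 10 network genes, Myc having none, and those of Mxd1, Mxd3, Mycn and Mycl held neither sequence. The matches are letters in a window and no binding was measured.

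Ncoa4, the targeted gene, was at 6.46, 6.19 and 6.02 FPKM in siControl and at 0.770, 0.952 and 0.891 FPKM in siNCOA4. With DFO it was at 8.70, 8.31 and 7.52 FPKM under control siRNA and at 0.8502, 1.29 and 1.57 FPKM under Ncoa4 siRNA. Each library thus matched the siRNA named in its label, and these values do not check the DFO part. Relative sequencing depth, read from the steps between low values, ran from 0.925 to 1.40 of the first siControl library. The shallowest was siNCOA4+DFO replicate 3. Small RNAs took 33.0 to 33.9% of the FPKM sum in siControl, 30.9 to 35.0% in siNCOA4, 37.8 to 41.2% in siControl+DFO and 43.9 to 47.3% in siNCOA4+DFO. Of 12 neuronal markers, 1 (Tubb3) had a mean of at least 1 FPKM in siControl, and Map2, Rbfox3, Snap25, Grin1 and Dcx were listed at 0 in all 3 siControl libraries. All 6 fibroblast markers were above that level, led by Col1a2 at 1002 FPKM, so the cells are called HT22 here and not neurons.

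At normal iron the summed transcripts of Mxd1, Mxi1, Mxd3, Mxd4 and Mnt exceeded those of Myc. In siControl the highest mean levels were those of Mxd4 (21.5 ± 1.89 FPKM, SD, n = 3), Mlx (19.1 ± 2.21) and Myc (17.9 ± 0.437), followed by Mxd3 (16.5 ± 2.04) and Max (14.9 ± 2.33). The values of these 5 genes ranged from 12.4 to 22.8 FPKM and overlapped between neighbours in the order. Mxi1 (8.85 ± 0.0657) and Mnt (8.13 ± 1.23) followed at lower levels, overlapping each other, and Mxd1 was lowest of the measurable members (3.18 ± 0.431). Among genes above 0 in siControl, Myc stood at the 69.6th percentile and Mxd1 at the 32.5th.

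Myc (chr15:61985341-61990361) had the widest range of the network. It was at 18.3, 17.4 and 18.1 FPKM in siControl and at 9.43, 9.42 and 10.2 FPKM in siNCOA4. With DFO it was at 212, 258 and 196.0 FPKM under control siRNA and at 106, 102 and 63.2 FPKM under Ncoa4 siRNA. The 4 groups did not overlap, in the order siControl+DFO, siNCOA4+DFO, siControl, siNCOA4. In siControl+DFO the gene stood at the 98.1th percentile of genes above 0. Ncoa4 siRNA alone lowered Myc to 0.542 of siControl (log2 fold change -0.88 ± 0.165 SE, adjusted p = 0.00519). DFO raised it 12.2-fold in control-siRNA cells (log2 3.61 ± 0.165, adjusted p = 8.68e-09) and 9.03-fold in Ncoa4-siRNA cells (log2 3.17 ± 0.165, adjusted p = 6.47e-08). Between the DFO groups, Ncoa4 siRNA lowered it to 0.400 (log2 -1.32 ± 0.165, adjusted p = 5.15e-04). This last difference was -1.09 (adjusted p = 2.45e-04) without siNCOA4+DFO replicate 3, the shallowest library and the lowest of its group. The 2 differences made by Ncoa4 siRNA were not shown to differ with iron: the interaction was -0.44 (95% confidence interval -0.95 to 0.07, adjusted p = 0.356). As these are bulk samples, a change in the share of cells that transcribe a gene and a change of RNA per cell cannot be told apart.

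The other two MYC genes were scarcely detected. Mycn (chr12:12936093-12941836) was listed at 0 in 11 libraries and at 0.102 FPKM in siNCOA4 replicate 1. Mycl (chr4:122995588-123002490) was listed at 0 in 10 libraries and at 0.0977 and 0.0880 FPKM in siControl+DFO replicates 1 and 3. Both stayed under the minimum of 0.5 FPKM in 3 libraries and were not tested, and at this depth a lower level than these was not detectable. The measured MYC output of these cells was therefore that of Myc.

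**Figure D1:**
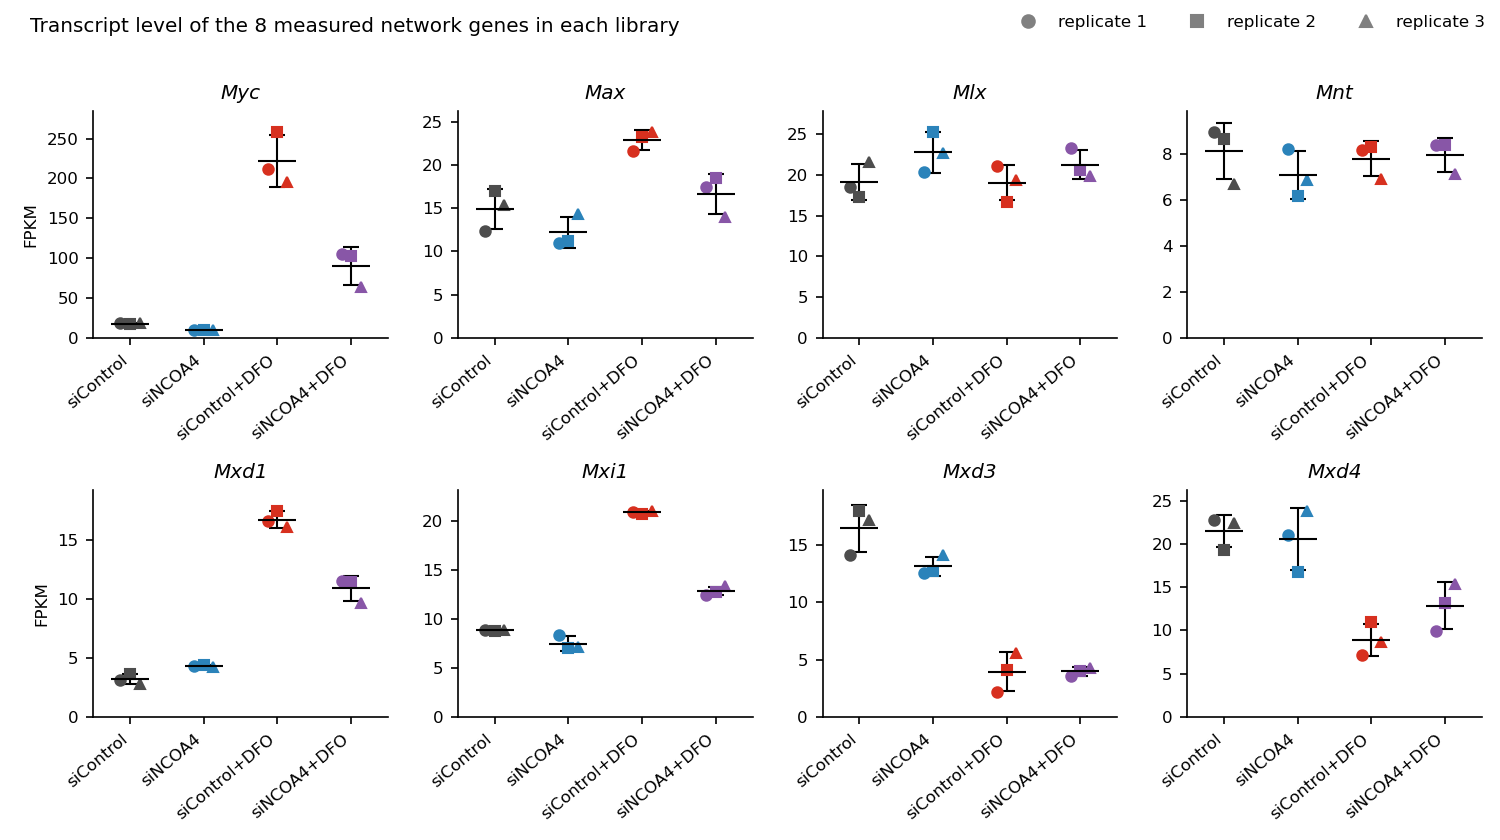
FPKM of the 8 measurable network genes (linear axes from 0, one panel a gene) in the 4 groups. Each symbol is a library, shaped by replicate number, and the bar and whiskers are the mean ± SD of 3. Myc, Mxd1 and Mxi1 are highest in siControl+DFO and intermediate in siNCOA4+DFO, Mxd3 and Mxd4 are lower with DFO under either siRNA, and the groups of Mnt and Mlx overlap.

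Max (chr12:76937269-76962323), the partner that both sides share, moved far less than Myc. It was at 12.4, 17.0 and 15.4 FPKM in siControl, 11.02, 11.2 and 14.3 in siNCOA4, 21.6, 23.3 and 23.8 in siControl+DFO, and 17.5, 18.4 and 14.0 in siNCOA4+DFO. Only the siControl+DFO libraries lay apart from the other groups, which overlapped their neighbours. DFO raised Max 1.54-fold in control-siRNA cells (log2 0.62 ± 0.144 SE, adjusted p = 0.00297). With both treatments it was at 1.11 times siControl (95% confidence interval of the log2 difference -0.16 to 0.47, adjusted p = 0.391). Ncoa4 siRNA under DFO gave -0.47 (adjusted p = 0.0447) and DFO under Ncoa4 siRNA gave 0.45 (adjusted p = 0.0247), and both calls were fragile. The first was lost without 8 of the 12 libraries in turn, all but siControl replicates 1 and 2, siNCOA4 replicate 3 and siNCOA4+DFO replicate 2, with values from -0.51 to -0.35. The second was lost without replicate 1 or 2 of siNCOA4 or of siNCOA4+DFO, with values from 0.37 to 0.41. With all libraries kept, the first was also lost with no filter, quantile normalization, a replicate block, the compared groups alone or no trend. Quantile normalization ended the second call too.

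Mlx (chr11:101086707-101092207) was at 18.5, 17.3 and 21.6 FPKM in siControl, 20.3, 25.3 and 22.7 in siNCOA4, 21.1, 16.7 and 19.4 in siControl+DFO, and 23.3, 20.6 and 19.9 in siNCOA4+DFO. The groups overlapped and no comparison passed the test. The DFO difference in control-siRNA cells was -0.01 with a 95% confidence interval of -0.27 to 0.26 on the log2 scale. In GENCODE, 19.4% of the Mlx exon bases lie under the antisense gene Psmc3ip. The library kit keeps strand, but the strand setting of the counting is not given in the sources used here. The same holds for 13.2% of Mxd4, 7.91% of Mxd3 and 2.91% of Mxi1 exon bases.

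Mxd1 (chr6:86647044-86669234), the MYC antagonist often called MAD1, rose with DFO. It was at 3.11, 3.64 and 2.78 FPKM in siControl and 4.26, 4.42 and 4.20 FPKM in siNCOA4. Under DFO it was at 16.6, 17.5 and 16.1 FPKM with control siRNA and at 11.5, 11.4 and 9.66 FPKM with Ncoa4 siRNA. The 4 groups did not overlap. DFO raised it 5.15-fold in control-siRNA cells (log2 2.37 ± 0.124 SE, adjusted p = 2.63e-08) and 2.49-fold in Ncoa4-siRNA cells (log2 1.32 ± 0.124, adjusted p = 6.14e-06). These responses differed, with an interaction of -1.05 (95% confidence interval -1.43 to -0.67, adjusted p = 0.0152), the one network gene for which it passed. Ncoa4 siRNA lowered Mxd1 under DFO to 0.652 (adjusted p = 0.00637). Without DFO it gave 1.35-fold (adjusted p = 0.0432), a call lost when any of 10 libraries was left out, all but siControl replicate 2 and siNCOA4+DFO replicate 3, with log2 values from 0.34 to 0.45 and adjusted p up to 0.129. It was also lost with a pseudocount of 1, with no filter, with quantile normalization and with the 2 groups fitted alone.

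Mxi1 (chr19:53310128-53373293), whose 3 promoter entries include those printed above, rose with DFO. It was at 8.87, 8.78 and 8.90 FPKM in siControl, 8.32, 7.01 and 7.08 in siNCOA4, 20.9, 20.7 and 21.0 in siControl+DFO, and 12.5, 12.7 and 13.3 in siNCOA4+DFO. None of the 4 groups overlapped. DFO raised it 2.34-fold with control siRNA (log2 1.23 ± 0.0908 SE, adjusted p = 4.08e-07) and 1.71-fold with Ncoa4 siRNA (log2 0.78 ± 0.0908, adjusted p = 3.00e-05). Under DFO, Ncoa4 siRNA lowered it to 0.617 (log2 -0.70, adjusted p = 6.52e-04). At normal iron the same siRNA gave -0.25 (adjusted p = 0.105). The interaction was -0.45 with an unadjusted p of 0.00429 and an adjusted p of 0.0908, so it did not pass.

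Mxd3 (chr13:55325170-55329900) went the other way from Mxd1 and Mxi1. It was at 14.2, 18.02 and 17.2 FPKM in siControl and 12.6, 12.8 and 14.1 FPKM in siNCOA4. Under DFO it was at 2.14, 4.10 and 5.54 FPKM with control siRNA and at 3.58, 4.02 and 4.30 FPKM with Ncoa4 siRNA. The DFO groups lay wholly below the others and overlapped each other. DFO lowered Mxd3 to 0.228 in control-siRNA cells (log2 -2.13 ± 0.257 SE, adjusted p = 2.23e-05) and to 0.306 in Ncoa4-siRNA cells (log2 -1.71 ± 0.257, adjusted p = 2.09e-04). Ncoa4 siRNA gave -0.32 at normal iron (adjusted p = 0.478) and 0.11 under DFO (95% confidence interval -0.45 to 0.67, adjusted p = 0.814), and neither passed.

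Mxd4 (chr5:34176580-34187710), whose promoter E-box is printed above, was the most abundant MXD transcript at normal iron. It was at 22.8, 19.4 and 22.5 FPKM in siControl, 21.0, 16.7 and 23.9 in siNCOA4, 7.18, 10.9 and 8.61 in siControl+DFO, and 9.98, 13.2 and 15.4 in siNCOA4+DFO. Again the DFO groups were below the others and overlapped each other. DFO lowered Mxd4 to 0.411 with control siRNA (log2 -1.28 ± 0.188 SE, adjusted p = 1.09e-04) and to 0.625 with Ncoa4 siRNA (log2 -0.68 ± 0.188, adjusted p = 0.0115). The latter call was lost without siNCOA4 replicate 3 (-0.56, adjusted p = 0.0530) or siNCOA4+DFO replicate 1 (-0.51, adjusted p = 0.0523). Ncoa4 siRNA under DFO gave 0.53 (adjusted p = 0.0750), which passed without siControl+DFO replicate 2 (0.68, adjusted p = 0.0463) or siNCOA4+DFO replicate 1 (0.70, adjusted p = 0.0278).

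Mnt (chr11:74830806-74845725), the broadly expressed MYC antagonist, was the steadiest member. It was at 8.98, 8.68 and 6.73 FPKM in siControl, 8.22, 6.18 and 6.88 in siNCOA4, 8.19, 8.31 and 6.94 in siControl+DFO, and 8.42, 8.39 and 7.13 in siNCOA4+DFO. All groups overlapped and none of the comparisons passed. The widest difference was that of siNCOA4 from siControl, at -0.19 with a 95% confidence interval of -0.52 to 0.14.

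**Figure D2:**
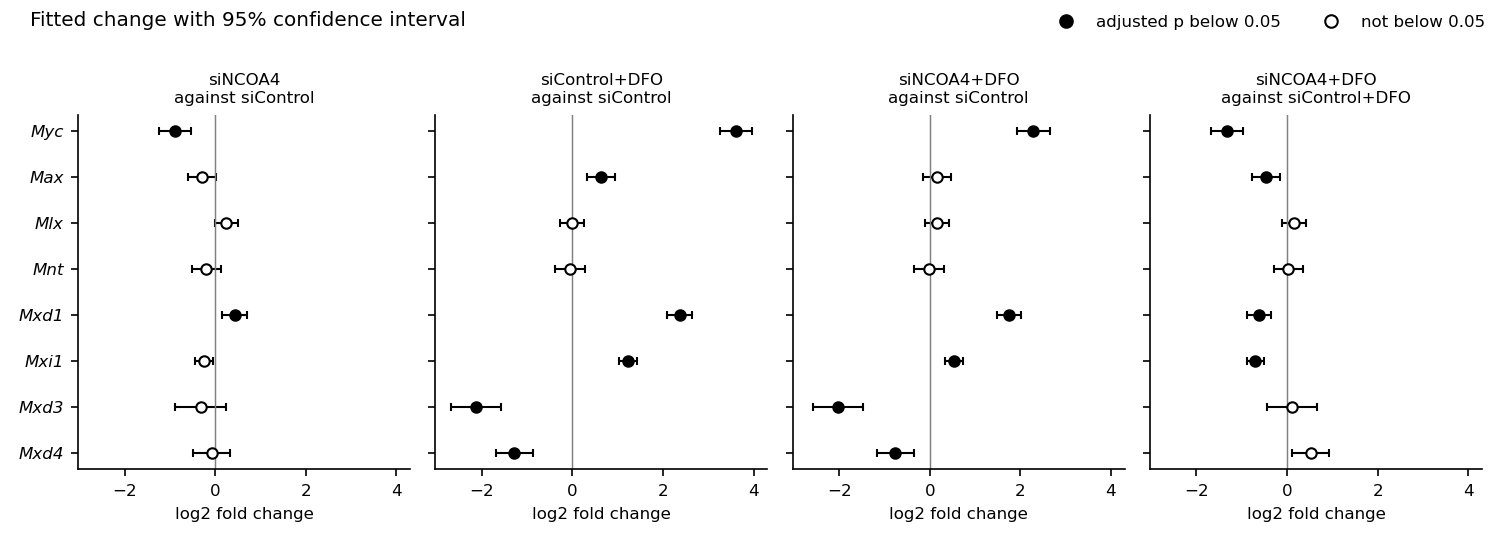
Fitted log2 fold change of the 8 tested network genes in 4 comparisons, with 95% confidence intervals from the fit over 12 libraries. Filled points passed an adjusted p of 0.05. With DFO in control-siRNA cells Myc (3.61), Mxd1 (2.37), Mxi1 (1.23) and Max (0.62) lie right of 0 and Mxd3 (-2.13) and Mxd4 (-1.28) left of it, and the right-hand panel has Myc, Max, Mxd1 and Mxi1 filled and left of 0.

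Counted over the 8 tested members and read against all 11924 genes tested, the calls were as follows. With DFO under control siRNA, 4 were higher (Myc, Max, Mxd1, Mxi1) and 2 lower (Mxd3, Mxd4), where 27.7% and 25.7% of all genes were called higher and lower. DFO under Ncoa4 siRNA gave the same 4 higher and 2 lower, against 23.1% and 19.6% of all genes. Both treatments against siControl gave 3 higher (Myc, Mxd1, Mxi1) and 2 lower (Mxd3, Mxd4), against 25.4% and 23.4%. Ncoa4 siRNA alone gave 1 higher (Mxd1) and 1 lower (Myc), against 4.52% and 7.21%. Ncoa4 siRNA under DFO gave 4 lower (Myc, Max, Mxd1, Mxi1) and 0 higher by limma, 1 member being higher at an unadjusted p under 0.05, against 10.2% of all genes lower and 6.22% higher. In the interaction, 1 was lower (Mxd1) and 0 higher by limma, 1 (Mxd4) being higher at an unadjusted p under 0.05, against 1.43% and 0.671%. The comparisons share groups, among them siControl, and are not independent. The median log2 fold change over the 8 members was 0.31 with DFO and -0.22 with Ncoa4 siRNA, where that over all genes was -0.01 and 0.00.

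Summed per library, the MXD and MNT transcripts were alike in siControl and siControl+DFO, and the 3 siNCOA4+DFO libraries lay below every library of those groups. The sum of Mxd1, Mxi1, Mxd3, Mxd4 and Mnt was 58.2 ± 0.292 FPKM (SD, n = 3) in siControl and 58.2 ± 3.25 FPKM in siControl+DFO. It was 52.5 ± 4.81 FPKM in siNCOA4 and 48.5 ± 2.23 FPKM in siNCOA4+DFO. Within it, Mxd1 and Mxi1 together went from 12.03 ± 0.366 FPKM in siControl to 37.6 ± 0.527 FPKM in siControl+DFO, while Mxd3 and Mxd4 together went from 38.0 ± 1.49 to 12.8 ± 3.08 FPKM. In siNCOA4+DFO the pairs were at 23.7 ± 0.624 and 16.9 ± 3.11 FPKM. The ratio of the Myc genes to this sum was 0.309 ± 0.00901 in siControl, 0.186 ± 0.0130 in siNCOA4, 3.81 ± 0.419 in siControl+DFO and 1.87 ± 0.538 in siNCOA4+DFO. Thus Myc was below these summed members in all 6 libraries without DFO and above them in all 6 with it. Mga, a MAX partner outside the member list, is not in the sum. It was at 17.9 ± 2.13 FPKM in siControl, 17.25 ± 2.25 in siNCOA4, 29.6 ± 0.528 in siControl+DFO and 28.2 ± 3.8 in siNCOA4+DFO. The total and the ratios would differ with it. Relative to Max, the Myc genes were at 1.22 ± 0.227 in siControl and 9.72 ± 1.44 in siControl+DFO. The summed MXD and MNT members were at 3.96 ± 0.634 and 2.54 ± 0.1005. These sums are descriptions of transcripts, and protein was not measured in these files.

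**Figure D3:**
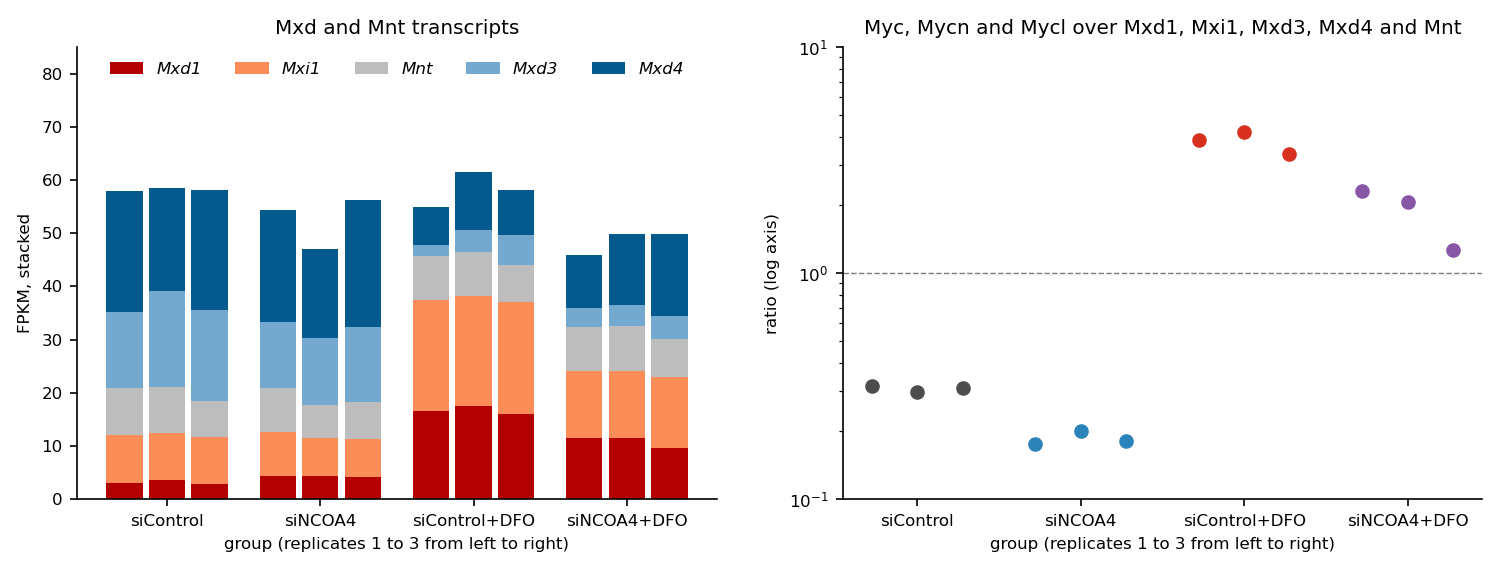
Left, stacked FPKM of Mxd1, Mxi1, Mnt, Mxd3 and Mxd4 in each of the 12 libraries on a linear axis from 0. Right, the ratio of the summed Myc genes to that stack in each library on a log axis, with a dashed line at equal levels. The stacks of siControl (57.9 to 58.5 FPKM) and siControl+DFO (55.0 to 61.5 FPKM) are of like height with opposite makeup, and the ratio is 0.175 to 0.316 without DFO and 1.27 to 4.20 with it.

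Other states of the cells moved with the same groups. The summed level of 12 hypoxia-response genes was 285 to 340.1 FPKM in siControl, 235 to 273 in siNCOA4, 1182 to 1231 in siControl+DFO and 829 to 925 in siNCOA4+DFO. With DFO, 10 of its 11 tested genes rose, where 27.7% of all genes were higher, Ndrg1 by 3.16 and Vegfa by 2.11 on the log2 scale. Ncoa4 siRNA lowered 5 of the 11 at normal iron, where 7.21% of all genes were lower, with Ndrg1 (-0.85) and Egln1 (-0.49, lost without siControl replicate 1 or 2 or siNCOA4 replicate 2 or 3, at -0.53 to -0.36) lowest. That count was 1 without siControl replicate 1 or 2 or siNCOA4 replicate 2, 2 without siNCOA4 replicate 1 or 3, and 3 without siControl replicate 3, siControl+DFO replicate 2 or 3 or siNCOA4+DFO replicate 2. Under DFO it lowered 2, where 10.2% of all genes were lower, Ndrg1 (-1.17) and Slc2a1 (-0.44, lost without siControl+DFO replicate 2 or 3 or siNCOA4+DFO replicate 3, at -0.39 to -0.30). This count was 4 without siControl replicate 1 and 1 without siControl+DFO replicate 2 or siNCOA4+DFO replicate 3. The sum of 12 proliferation genes was 827 to 863 FPKM in siControl, 766 to 783 in siNCOA4, 642 to 694 in siControl+DFO and 586 to 664 in siNCOA4+DFO, with Plk1, a mitotic kinase, lower by DFO (log2 -2.23) and Ccne2, cyclin E2, higher (1.93). DFO raised 3 and lowered 6 of these 12, Bub1 (0.61) and Cdk1 (-0.84) among them, where 27.7% and 25.7% of all genes were higher and lower. Ncoa4 siRNA at normal iron raised 1, Ccne2 (0.77), and lowered 1, Ccne1 (-1.31), where 4.52% and 7.21% of all genes were. The 6 fibroblast markers summed to 1819 to 2195 FPKM in siControl, 1110 to 1409 in siNCOA4, 596 to 797 in siControl+DFO and 707 to 838 in siNCOA4+DFO. The part of these states, and of the small RNA share given above, in the changes of Myc, Max, Mxd1, Mxi1, Mxd3 and Mxd4 was not tested.

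The genes that partner, assist or turn over the network's proteins were taken as a list of 30, of which 29 were tested. DFO under control siRNA raised 12 and lowered 8 of them, where 27.7% and 25.7% of all genes were higher and lower, with a median log2 fold change of 0.10. Pim1, a kinase that phosphorylates MYC, rose most, from 1.91 ± 0.729 to 20.3 ± 3.22 FPKM (SD, n = 3, log2 3.39, adjusted p = 3.06e-06). Fbxw7, the ubiquitin ligase subunit that marks MYC for degradation, rose as well, from 12 ± 0.716 to 21.0 ± 1.00 FPKM (0.81). Sin3a, the corepressor that MXD proteins recruit, fell most, from 29.96 ± 3.53 to 11.7 ± 0.793 FPKM (log2 -1.35, adjusted p = 1.43e-06). Its paralog Sin3b was at 63.2 and 69.7 FPKM and did not pass (0.15, adjusted p = 0.206). Fbxo32, another ubiquitin ligase subunit that targets MYC, fell by 0.90, a call lost without replicate 3 of siControl or of siControl+DFO (-0.84 to -0.78). Of the MAX and MLX partners, Mga rose (0.73, adjusted p = 3.05e-04), Mlxip, which encodes MondoA, did not pass (-0.08, adjusted p = 0.448), and Mlxipl, which encodes ChREBP, was listed at 0 or below the minimum.

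Ncoa4 siRNA at normal iron raised 2 and lowered 6 of the 29 partner genes (median -0.08), where 4.52% and 7.21% of all genes were higher and lower. The histone deacetylases Hdac1 (0.41, adjusted p = 0.0381) and Hdac2 (0.34, adjusted p = 0.0133) were those higher. Kat2a, an acetyltransferase that MYC recruits, was the lowest (-0.69, adjusted p = 0.00266), followed by Bin1 (-0.46), which encodes a MYC-interacting adaptor. Leaving out single libraries ended the calls of Hdac1 (siControl replicates 1 and 2, siNCOA4 replicates 2 and 3 and siControl+DFO replicate 3, 0.33 to 0.42), Hdac2 (siNCOA4 replicate 2, 0.30) and Bin1 (siControl or siNCOA4 replicates 2 and 3, -0.45 to -0.39). This count ranged from 1 to 8 when single libraries were left out, at 3, 4 and 5 without siControl replicates 1, 2 and 3, and at 1 and 2 without siNCOA4 replicates 2 and 3. Mlxip was among the 6 lower (-0.32, adjusted p = 0.0350), and its call without single libraries is not given here. Under DFO, where 10.2% of all genes were lower and 6.22% higher, Ncoa4 siRNA lowered 8 and raised 1, with Pim1 (-1.78, adjusted p = 0.00361) and Bin1 (-0.44, adjusted p = 0.0220, lost without siControl+DFO replicate 1 or 2 or siNCOA4+DFO replicate 2 or 3, at -0.44 to -0.35) lowest and Fbxw7 higher (0.45, adjusted p = 0.0350, lost without any siControl+DFO library or without siNCOA4+DFO replicate 1 or 2, at 0.32 to 0.49). That count was 4, 1 and 4 without siControl+DFO replicates 1, 2 and 3, and 4 and 2 without siNCOA4+DFO replicates 2 and 3. With both treatments against siControl, 5 rose and 11 fell, where 25.4% and 23.4% of all genes did, among them Pim1 (1.61), Fbxw7 (1.26), Fbxo32 (-1.17) and Sin3a (-1.10).

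Genes of ribosome biogenesis that MYC is known to activate (30 listed, 30 tested) had calls in one direction with Ncoa4 siRNA. It lowered 8 at normal iron, where 7.21% of all genes were lower, and 12 under DFO, where 10.2% were. It raised 0 by limma in either, with 0 higher also at an unadjusted p under 0.05 and 14 and 20 lower there. The list's medians were -0.24 and -0.32, against 0.00 and -0.01 over all genes. Mybbp1a, a nucleolar protein that binds MYB, went from 112 ± 3.57 to 68.0 ± 3.46 FPKM (log2 -0.72, adjusted p = 2.46e-04) and, under DFO, from 109 ± 5.43 to 60.1 ± 7.11 FPKM (-0.86, adjusted p = 1.25e-04). Pa2g4, a nucleolar growth regulator, fell by 0.55 and, under DFO, by 0.73, the first call being lost without siControl replicate 2 or 3 or siNCOA4 replicate 2 (-0.54 to -0.52). The counts were 4, 5 and 4 without siControl replicate 2 and siNCOA4 replicates 1 and 2 at normal iron. Under DFO they were 5, 7 and 5 without siControl+DFO replicates 1 and 2 and siNCOA4+DFO replicate 3.

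Where DFO raised Myc 12.2-fold, 8 of the 30 ribosome biogenesis genes rose and 6 fell in control-siRNA cells. Over all genes 27.7% were higher and 25.7% lower, so these counts were near the background and are no result about the list. Its median was 0.05, against -0.01 over all genes. Utp20, of the small-subunit processome, rose from 18.7 ± 0.839 to 47.2 ± 0.712 FPKM (1.33, adjusted p = 7.76e-08), and Gnl3, which encodes nucleostemin, from 36.3 ± 1.30 to 68.4 ± 2.63 FPKM (0.91). Noc4l (-0.81, adjusted p = 0.00387) and Bysl (-0.56, adjusted p = 0.00615), both of small-subunit assembly, fell. With both treatments against siControl 3 rose and 12 fell (median -0.25), where 25.4% and 23.4% of all genes did, with Utp20 (1.01) and Gnl3 (0.70) again higher and Mybbp1a (-0.90) and Dkc1 (-0.80), the pseudouridine synthase dyskerin, lower. DFO in Ncoa4-siRNA cells raised 6 and lowered 6 (median -0.04), where 23.1% and 19.6% of all genes were higher and lower.

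Metabolic and cell cycle genes that MYC is known to activate (25 listed, 25 tested) had 11 higher and 7 lower with DFO in control-siRNA cells (median 0.24), where 27.7% and 25.7% of all genes were higher and lower. Tfrc, the transferrin receptor, rose from 70.3 ± 2.02 to 328 ± 17.2 FPKM (2.22, adjusted p = 3.08e-09), and Hk2, hexokinase 2, from 15.2 ± 2.92 to 63.8 ± 2.96 FPKM (2.08). Both are also known targets of other iron or oxygen responses. Phb, prohibitin (-0.75, adjusted p = 1.95e-04), and Hspe1, a mitochondrial chaperonin (-0.69), fell. Ncoa4 siRNA lowered 6 at normal iron, where 7.21% of all genes were lower, led by the folate carrier gene Slc19a1 (-0.98, adjusted p = 6.18e-04) and by Cad, of pyrimidine synthesis (-0.61, adjusted p = 0.0157, lost without siControl replicate 1 or siNCOA4 replicate 1 or 2, at -0.61 to -0.53), and raised 0 by limma, with 1 higher at an unadjusted p under 0.05. The count was 3 without siNCOA4 replicate 1 and 3 without siNCOA4 replicate 2. Under DFO it lowered 6, where 10.2% of all genes were lower, with Shmt2 (-0.51) and Tfrc (-0.45) lowest, and raised 0 by limma, again with 1 higher at an unadjusted p under 0.05. With both treatments against siControl 8 rose and 7 fell, where 25.4% and 23.4% of all genes did, with Hk2 (1.80) and Tfrc (1.77) highest and Impdh2, of guanine nucleotide synthesis (-0.98), and Phb (-0.90) lowest.

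Of 10 genes that MYC is known to repress, 7 were tested. DFO raised 5 and lowered 1 in control-siRNA cells (median 2.74), where 27.7% and 25.7% of all genes were higher and lower. Cdkn1a, the cell cycle inhibitor p21, went from 15.0 ± 1.98 to 445 ± 19.2 FPKM (4.89, adjusted p = 6.53e-10), and Gadd45a from 9.25 ± 1.47 to 143 ± 14.1 FPKM (3.94). Both are also p53 targets, and Ndrg1, which stands in the hypoxia list too, rose by 3.16. Gas1, a growth arrest gene, fell from 68.5 ± 6.63 to 10.4 ± 0.523 FPKM (-2.71, adjusted p = 4.77e-07). Ncoa4 siRNA at normal iron, where 4.52% and 7.21% of all genes were higher and lower, raised 2 and lowered 3. Cdkn1a rose to 53.2 ± 2.89 FPKM (1.82, adjusted p = 2.46e-05) and Ndrg1 fell by 0.85 (adjusted p = 0.00362). The calls for Gadd45a (0.56) and Gas1 (-0.73) there were lost without 6 and 8 single libraries, and the count of 5 was 2 or 3 without any library of siControl, siNCOA4 or siControl+DFO. Under DFO, where 10.2% of all genes were lower, Ncoa4 siRNA lowered 4, with Gadd45b (-1.30) and Ndrg1 (-1.17) lowest, and raised 0 by limma, none being higher at an unadjusted p under 0.05. That count was 2 without siControl+DFO replicate 1 or 2. With both treatments against siControl, where 25.4% and 23.4% of all genes were higher and lower, 4 rose, led by Cdkn1a (4.47) and Gadd45a (3.41), and 2 fell, Gas1 (-2.63) and Cdkn1b (-0.38).

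On the MLX arm, Txnip and Arrdc4 are the best known targets of MondoA with MLX. Txnip was at 38.4, 40.1 and 43.4 FPKM in siControl, 38.7, 37.8 and 39.6 in siNCOA4, 260, 247 and 218 in siControl+DFO, and 147, 137 and 112 in siNCOA4+DFO. The DFO groups lay apart from each other and above the rest. DFO raised Txnip 5.93-fold (log2 2.57, adjusted p = 3.16e-09) while Mlx and Mlxip did not pass, and Ncoa4 siRNA lowered it under DFO to 0.545 (-0.88, adjusted p = 3.54e-04). Arrdc4 was raised 1.53-fold by DFO (adjusted p = 6.42e-04). Its difference by Ncoa4 siRNA under DFO was -0.37 (adjusted p = 0.0428), lost without 9 of the 12 libraries in turn, all but siControl replicates 1 and 2 and siControl+DFO replicate 3.

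**Figure D4:**
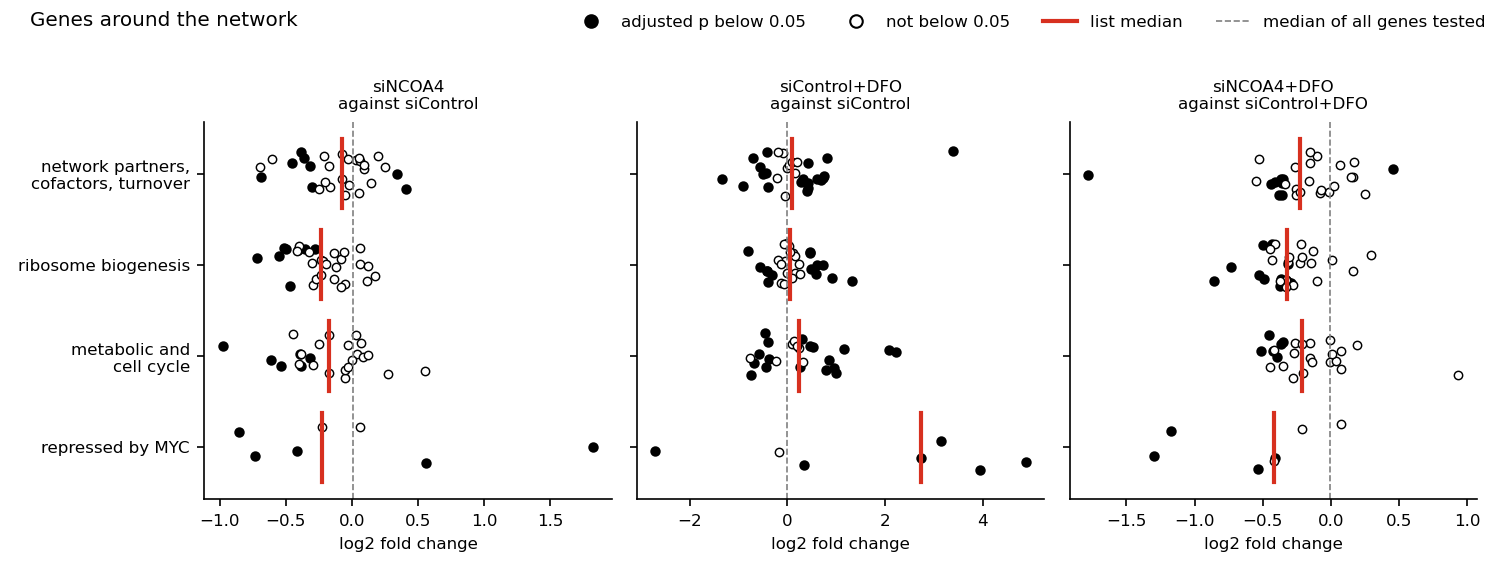
Log2 fold change of the tested genes of 4 lists around the network in 3 comparisons, each with its own axis. Filled points passed an adjusted p of 0.05, red bars are list medians and dashed lines the median of all genes tested. Ribosome biogenesis medians lie left of the dashed line with Ncoa4 siRNA (-0.24 and, under DFO, -0.32) and near it with DFO (0.05), and the genes that MYC represses are widely spread with DFO, from -2.71 to 4.89.

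Of 10835 other genes with a mean of at least 1 FPKM, those whose log2 levels most closely followed the members that passed in any comparison over the 12 libraries are given as a description. The libraries form 4 groups, so a high Pearson r mainly says that group levels line up. Nearest to Myc were Egr1 (r = 0.996), Klf4 (0.996) and Klf9 (0.996). Egr1, an immediate early transcription factor gene, had group means of 7.91, 4.49, 118 and 45.3 FPKM in siControl, siNCOA4, siControl+DFO and siNCOA4+DFO. Nearest to Mxd1 were Cxcl1 (0.995), Smad7 (0.994) and Evpl (0.994), and nearest to Mxi1 were Mtmr10 (0.989), Kdm2a (0.986) and Smg1 (0.985). Mxd3 was followed by Nde1 (0.985), Loxl1 (0.981) and Tgfb3 (0.978), and Mxd4 by Iqsec2 (0.982), BC100451 (0.974) and Soga3 (0.973). Dhx33 (0.968) and Dnaja3 (0.962) were among those nearest to Max.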

How the data were processed

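Per the labels, total RNA of HT22 cells was made into stranded libraries (SMARTer Pico kit). The submitters' processing notes name Trimmomatic 0.33, FastQC, HISAT2 2.1.0, featureCounts, edgeR and the build mm10. The authors deposited FPKM per gene, one file a library; their library size definition and annotation are not given in the sources used here. Read totals are unknown, so no counting intervals are given. Of 24347 entries, 4 that share names were left out of the fit.

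For this report, log2(FPKM + 0.1) was fitted with limma 3.58.1 (R 4.3.3; empirical Bayes with trend, 8 residual degrees of freedom) over all 12 libraries in 4 groups, for 11924 genes with at least 0.5 FPKM in 3 libraries. Tests were two-sided. P-values were Benjamini-Hochberg adjusted within each comparison, and a gene passed below 0.05. Fold changes are on that log2 scale and understate low genes. Values after ± are as named, SD or SE. The fit was tested on simulated data. Exact permutation of 3 against 3 libraries cannot go below p = 0.1 and was not used.

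Members and lists were chosen with earlier results of these data known. Named list genes are the 2 largest passing rises and falls in each of 4 comparisons, and genes named as partners by role (Sin3b, Mga, Mlxip, Mlxipl) were added after their values were seen. For members that passed in any comparison, the 3 closest genes by Pearson r were named, except that 1 is not reported here. C330027C09Rik was matched as Cip2a through RefSeq synonyms. Alternatives comprised 11 other settings and 12 fits leaving out 1 library each; the latter were added for the hypoxia and proliferation lists after seeing the data. Same-numbered replicates did not deviate together. Over 75-base windows of GENCODE transcripts, the network genes shared none with other genes except 1 of 8508 windows of Mxd4.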

Additional observations from a re-analysis of the deposited data

Results flagged for a closer look

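The DFO response of Mxd1 differed between the siRNA groups. It was 2.37 on the log2 scale in control-siRNA cells and 1.32 in Ncoa4-siRNA cells, and the test of the difference itself, the interaction in limma, gave -1.05 (adjusted p = 0.0152). Over the other settings it ran from -1.06 to -0.93 with adjusted p from 0.0117 to 0.0225, and without single libraries from -1.15 to -0.96 with adjusted p up to 0.0460. Mxd1 was not alone in this among the genes looked at. Of the 7 tested genes that MYC represses, 3 also passed the interaction, all lower, where 1.43% of all genes were lower. The same held for 1 of the 2 tested targets of MondoA with MLX and 1 of the 12 proliferation genes, both lower. Of the 29 partner, 30 ribosome biogenesis, 25 metabolic and 11 hypoxia-response genes tested, 0 passed it.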

How the results depend on the processing

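These tallies leave out the setting that also asks for a fold change above 2. Of 1048 values of the network genes under the remaining settings or without single libraries, 1012 kept their side of the threshold, 34 lost it, 2 gained it and 0 reversed a call. For the other named genes these numbers were 7540, 276, 38 and 0 of 7854. In 96 cases a value that passed in neither setting changed sign. The calls for Myc, Mxi1 and Mxd3 given in the report held in all settings that keep the adjusted p alone as the rule. The added fold change rule ended the call of Myc with Ncoa4 siRNA alone (-0.88). It also ended those of Mxi1 with both treatments (0.53), with Ncoa4 siRNA under DFO (-0.70) and with DFO under Ncoa4 siRNA (0.78). Median-of-ratios scaling moved the median of all genes by at most 0.00713 and quantile normalization by at most 0.0690 on the log2 scale.

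With the replicate number added as a block, network calls were 2 for Ncoa4 siRNA, 6 for DFO, 5 for both, 3 for Ncoa4 siRNA under DFO, 6 for DFO under Ncoa4 siRNA and 1 for the interaction. Of the network genes, the block changed the call of Max under DFO (adjusted p from 0.0447 to a value above 0.05) and no other. The labels give no shared source to equal numbers, and same-numbered libraries had correlations of their deviations from -0.127 to 0.116 over 18 pairs, against -0.175 to 0.162 over 36 pairs with other numbers.

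Network calls for Ncoa4 siRNA went from 2 to 1 with a pseudocount of 1, no filter, quantile normalization or the compared groups alone, to 0 with a fold change above 2 as well, and to 1 to 2 without single libraries. With the fold change rule they were 3 for both treatments, 1 for Ncoa4 siRNA under DFO and 3 for DFO under Ncoa4 siRNA. With that rule partner genes numbered 0, 2, 5, 1 and 3 in the order Ncoa4 siRNA, DFO, both, Ncoa4 siRNA under DFO, DFO under Ncoa4 siRNA. Ribosome biogenesis genes numbered 0, 1, 1, 0 and 1, metabolic genes 0, 3, 2, 0 and 3, and repressed genes 1 for Ncoa4 siRNA and 2 for it under DFO.

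For Ncoa4 siRNA, partner calls were 5 in the compared groups alone and 1 to 8 without single libraries, ribosome calls 4 to 9, metabolic calls 3 to 8, and repressed-gene calls 2 with no filter or no trend, 3 in the compared groups alone and 2 to 6 without single libraries. For Ncoa4 siRNA under DFO, partner calls were 3 with quantile normalization, 4 in the compared groups alone, 5 with no trend and 1 to 10 without single libraries. Ribosome calls there were 4 with quantile normalization, 6 in the compared groups alone and 5 to 14 without single libraries, and metabolic calls 3 with quantile normalization. Repressed-gene calls there were 2 with no filter, quantile normalization, the compared groups alone or no trend, and 2 to 4 without single libraries. The cause was not tested, except that fits of the compared groups alone or without a library use fewer samples.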
